A study of Mus musculus with 8 samples.

Results

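Amino acid transporters of 7 solute carrier families were examined in RNA from bone fractions enriched for osteocytes, the cells that sit within mineralized bone matrix. The members are the protein-coding mouse genes whose symbol is Slc1a, Slc3a, Slc6a, Slc7a, Slc36a, Slc38a or Slc43a followed by a number. The raw count table held 63 of them among its 43346 genes, with 7 in the Slc1a, 2 in the Slc3a, 21 in the Slc6a, 15 in the Slc7a, 4 in the Slc36a, 11 in the Slc38a and 3 in the Slc43a family. Slc7a6os also carries such a spelling, but it is named for lying opposite Slc7a6 and is no transporter, so it is given apart. The study compared C57BL/6 mice aged 12 weeks in 3 groups, with 3 libraries from the femur (a long bone, numbers 1, 2 and 4), 3 from the frontal bone (1, 2 and 4) and 2 from the parietal bone (2 and 4). Frontal and parietal bone are flat bones of the skull vault, here called calvaria when taken as one. The labels name no transgene, deletion or treatment for any group. The labels do not say whether libraries came from separate or pooled animals, and the p-values below therefore reflect the spread among these 8 libraries alone, which may be technical.

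Mammalian cells take up amino acids through carriers of several families that differ in what drives them. Slc1a, Slc6a and most plasma membrane Slc38a proteins couple uptake to sodium, some Slc36a proteins to protons, and many Slc7a proteins exchange one amino acid for another. A group of Slc7a proteins, the light chains, reaches the cell surface only when bound to a heavy chain of the Slc3a family. Osteoblasts, the cells that become osteocytes, use glutamine, proline, asparagine and other amino acids for matrix protein, and several of these carriers are known targets of Atf4, a transcription factor of the response to amino acid shortage.

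Levels are given as CPM, counts relative to a library total fixed for all libraries, on the trimmed mean of M values (TMM) scale, always in the order of the library numbers. Total gene counts ran from 6259229 to 13461622 per library, and the 5 calvarial and 3 femur libraries differed in their cell markers. The 16 osteocyte markers (Dmp1, Sost and others) took 2.6 to 5.02% of counts in femur and 0.199 to 0.288% in calvaria, and none was at 0 in all libraries. Of these, 11 were lower and 3 higher in calvaria, with a median log2 fold change of -2.9. Most of the femur share was Dmp1, at a mean of 35300 CPM in femur and 528 CPM in calvaria, followed in femur by Mepe at 3140 CPM. Erythroid markers took 1.24 to 2.99% in femur and 7.16 to 11.3% in calvaria, with 17 of 17 higher, and granulocyte markers took 1.83 to 4.8% and 6.95 to 9.24%, with 11 of 16 higher. Proliferation genes took 0.0871 to 0.141% in femur and 0.321 to 0.387% in calvaria, with 16 of 16 higher. Other lists fell along with the osteocyte markers. Osteoblast and matrix markers took 6.98 to 9.64% in femur and 1.38 to 3.59% in calvaria, with 11 of 16 lower and 0 higher. Endothelial markers took 0.0626 to 0.0741% and 0.0277 to 0.039%, with 11 of 12 lower and 0 higher. The part of these differences in the transporter results below was not tested, and fewer cells of a type and less RNA per cell cannot be told apart in such bulk samples.

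Transporter genes were more often lower than higher in calvaria. Of the 63 members, 40 had enough counts to be tested, and in the mean of frontal and parietal bone against femur 8 were higher, 20 were lower and 12 did not pass (edgeR's quasi-likelihood test, adjusted p under 0.05 over all 15511 genes tested). Among all genes tested 29.6% were called higher and 31.4% lower, against 20% and 50% of the tested transporters. The median log2 fold change of the 40 was -0.82, and that of all genes tested was 0.012. The libraries of the groups did not overlap for 7 of the 8 higher and 18 of the 20 lower members, which is 17.5 and 45% of those tested. Among all genes tested 25.0% were both called higher and free of overlap, and 26.7% lower. These directions hold on the TMM scale. With libraries scaled to the osteocyte markers (the osteocyte scale), which moved the median of all genes to 2.472, 32 members were higher and 2 lower. There 14487 of all 15511 genes tested were called in either direction. The members' median was 1.63 on that scale, still below that of all genes. With a trend on gene length and GC content removed, 10 members were higher and 17 lower and the members' median was -0.22. Of all genes tested 8992 were then called in either direction, with a median of 0.015.

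**Figure D1:**
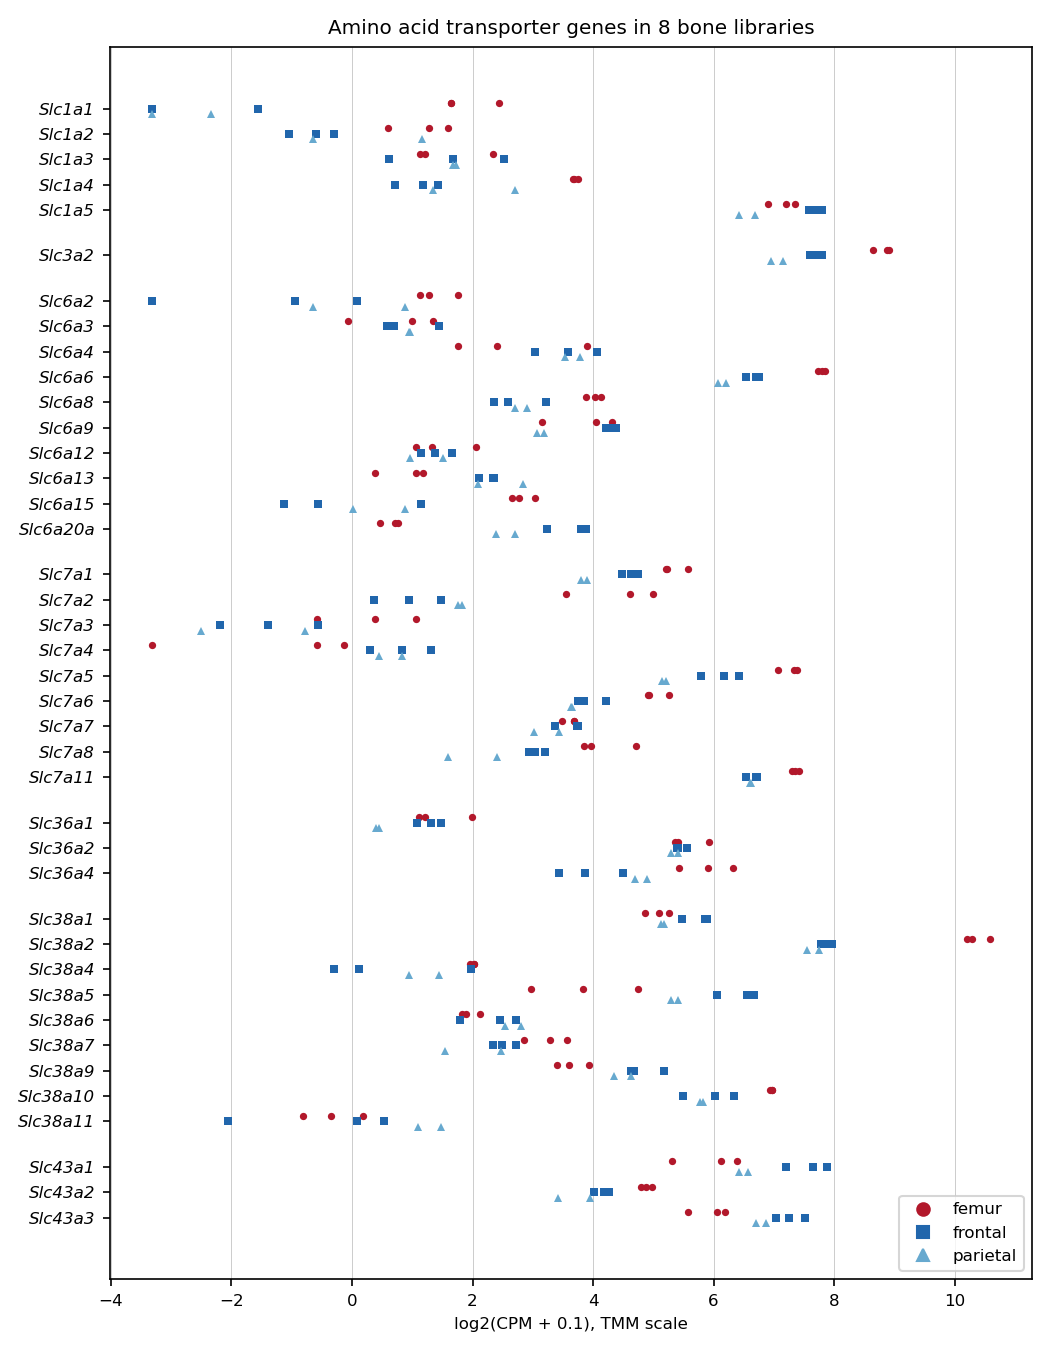
Level of each of the 40 tested transporters in each of the 8 libraries, as log2(CPM + 0.1) on the TMM scale. Circles are femur, squares frontal and triangles parietal libraries, and families are set apart by gaps. Slc38a2 spans 1180.3 to 1537 CPM in femur, with every calvarial library at 248.7 CPM or less.

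The other 23 members lay under the low count filter, with totals of 0 to 41 counts over all 8 libraries and a median of 9. They included Slc1a6, Slc1a7, Slc3a1, Slc6a5, Slc6a7, Slc6a11, Slc6a14, Slc6a16, Slc6a17, Slc6a18, Slc6a19, Slc6a20b, Slc6a21, Slc7a9, Slc7a10, Slc7a12, Slc7a13, Slc7a14, Slc7a15, Slc36a3, Slc38a3 and Slc38a8. Slc6a14 had 0 counts. They were not tested, and counts this low allow no call on a difference between bones. The libraries of Slc6a17 were at 0.516, 1.32 and 0.7001 CPM in femur and between 0 and 0.388 CPM in calvaria, without overlap. Slc6a16 did not overlap either, with 5 counts in femur and 1 in calvaria. Both were singled out after their values were seen. Among the tested members Slc1a1, Slc1a2, Slc6a2 and Slc7a3 passed the filter only through femur libraries, and Slc7a4 and Slc38a11 only through calvarial ones, so that each could hardly have been seen to differ in the other direction. Those that passed through femur are all among the 20 lower members, and Slc7a4 is among the 8 higher.

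The Slc3a family held 1 tested gene, and on the TMM scale it was lower in calvaria. Slc3a2 (ENSMUSG00000010095, chromosome 19, 8706882 to 8723369) encodes the heavy chain that carries Slc7a light chains to the cell surface, also known as CD98 or 4F2hc. It stood at 479, 399 and 471 CPM in femur, 223, 193 and 210.2 CPM in frontal and 141 and 124 CPM in parietal bone. All 3 femur libraries lay above all frontal ones, and these above both parietal ones. The log2 fold change in calvaria against femur was -1.43 ± 0.11 (SE, edgeR adjusted p = 9.48e-07), a level 2.7-fold lower, but it turned to 1.04 on the osteocyte scale. Slc3a1, the heavy chain of kidney and gut, had 7 counts in all libraries together.

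The Slc7a family was mostly lower in calvaria, with 7 of its 9 tested members lower, 1 higher and 1 not past the test. The 77.8% lower compare with 31.4% of all genes tested, and the family's median log2 fold change was -1.24. On the osteocyte scale 7 members were higher and 1 lower, with a median of 1.24 against 2.472 for all genes. The other scalings kept 7 lower and 1 higher. The family's members fall into the light chains, which are exchangers, and the cationic transporters, which act without a heavy chain.

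Of the 5 light chains 4 were lower in calvaria. Slc7a5 (ENSMUSG00000040010, chromosome 8, 121881150 to 121907694), or LAT1, which exchanges large neutral amino acids such as leucine for glutamine, was the most abundant per length. Its level was 161, 134 and 167 CPM in femur, 72.1, 85.2 and 55.5 CPM in frontal and 36.8 and 35.1 CPM in parietal bone. Femur libraries lay highest and parietal ones lowest, with no overlap between bones, and the log2 fold change in calvaria was -1.61 ± 0.14 (SE, edgeR adjusted p = 2.59e-06). Slc7a8 (ENSMUSG00000022180, chromosome 14, 54722209 to 54781946), or LAT2, a carrier of small and large neutral amino acids, stood at 25.96, 15.6 and 14.2 CPM in femur, 8.13, 7.55 and 9.13 CPM in frontal and 5.198 and 2.91 CPM in parietal bone. Every calvarial library lay below every femur library, at a log2 fold change of -1.66 ± 0.24 (SE, edgeR adjusted p = 0.000112). Slc7a6, an exchanger of cationic against neutral amino acids, fell by 1.24 on the log2 scale, from 32.8 ± 4.55 CPM (SD, n = 3) in femur to 14.2 ± 2.501 CPM (n = 5) in calvaria. Slc7a7, its close relative, stood at 12.2 ± 0.967 and 11.1 ± 2.24 CPM and did not pass (-0.18, edgeR adjusted p = 0.409).

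Slc7a11 (ENSMUSG00000027737, chromosome 3, 49892526 to 50443614), the cystine-glutamate exchanger xCT that feeds glutathione synthesis, fell by 0.73 on the log2 scale, the smallest fall among the called light chains. It stood at 158, 162 and 171 CPM in femur, 104, 92.3 and 106 CPM in frontal and 96.9 and 97.9 CPM in parietal bone. Femur and calvarial libraries did not overlap, and frontal and parietal bone differed by 0.05 ± 0.13 (SE, edgeR adjusted p = 0.837). Its promoter is shown because it holds the C/EBP-ATF response element TGATGNAA, searched on both strands, at 2 places in the 250 bases before the RefSeq start (GRCm38.p6, minus strand, chr3:50443614-50443863). Capitals mark the 2 matches, the first in the direction of the gene, beginning 66 bases before the start, and the other on the opposite strand, beginning 47 bases before it.
Slc7a11: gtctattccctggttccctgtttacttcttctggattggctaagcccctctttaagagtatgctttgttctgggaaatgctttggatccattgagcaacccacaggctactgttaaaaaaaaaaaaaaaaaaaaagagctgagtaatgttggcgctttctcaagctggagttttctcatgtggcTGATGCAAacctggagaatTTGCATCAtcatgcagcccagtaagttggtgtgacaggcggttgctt
That element was in 3.45% of 32851 RefSeq promoters of this length. RefSeq promoters were found for 45 of the members, of which 3 held it, namely Slc7a11, Slc7a7 and Slc6a21. AGATAA, the motif of GATA factors, was in 9.99% of all promoters and in those of Slc3a1, Slc7a7 and Slc7a9. A match is a description of these letters and no evidence of binding.

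Among the cationic transporters, which carry arginine, lysine and ornithine, 3 were lower and 1 higher. Slc7a2 (ENSMUSG00000031596, chromosome 8, 40862396 to 40922308), or CAT2, showed the largest fall in the family, with 31.8, 24.4 and 11.7 CPM in femur, 1.195, 1.82 and 2.67 CPM in frontal and 3.44 and 3.298 CPM in parietal bone. Every femur library lay above every calvarial one, and the log2 fold change was -3.16 ± 0.32 (SE, edgeR adjusted p = 6.3e-06), a level 8.91-fold lower that remained lower on the osteocyte scale. Femur library 4 was the lowest of the 3 femur libraries for Slc7a2, as it was for the osteocyte markers at 2.6% of counts, against 4.9 and 5.02% in the other femur libraries. In the femur mean most of that marker share was Dmp1. Femur library 4 was also the lowest femur library for osteoblast and matrix markers, at 6.98% against 7.6 and 9.64%. Slc7a1 (ENSMUSG00000041313, chromosome 5, 148327410 to 148399904), or CAT1, the widely expressed arginine transporter, stood at 47.8, 37.4 and 36.99 CPM in femur, 26.8, 22.3 and 24.6 CPM in frontal and 13.8 and 14.8 CPM in parietal bone. Again femur lay highest and parietal bone lowest without overlap, with a log2 fold change of -1.11 ± 0.14 (SE, edgeR adjusted p = 3.77e-05).

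The remaining members of this subfamily were close to the detection limit. Slc7a3 (ENSMUSG00000031297, chromosome X, 101079210 to 101086020), or CAT3, was at 1.204, 0.566 and 1.98 CPM in femur, 0.1195, 0.574 and 0.281 CPM in frontal and 0.0764 and 0.485 CPM in parietal bone. Frontal library 2 lay as high as femur library 2, and the log2 fold change of -1.99 ± 0.68 (SE, edgeR adjusted p = 0.0238) did not pass without parietal library 2 (-1.58, edgeR adjusted p = 0.0839) and was -2.82 without parietal library 4. Slc7a4 (ENSMUSG00000022756, chromosome 16, 17572018 to 17583214), a relative with no settled substrate, had 0, 0.566 and 0.817 CPM in femur, 1.67, 2.39 and 1.12 CPM in frontal and 1.68 and 1.26 CPM in parietal bone. All calvarial libraries lay above the femur libraries, with a log2 fold change of 1.65 ± 0.59 (SE, edgeR adjusted p = 0.0293), but the call was lost without femur library 1 (1.2, edgeR adjusted p = 0.0683), femur library 2 (1.75, 0.072), frontal library 2 (1.49, 0.0557) or parietal library 2 (1.53, 0.0831). Its exons overlap those of P2rx6 over 13.3% of their length, so some of its counts may belong to that gene. Slc7a6os, the gene opposite Slc7a6, had a log2 fold change of -0.76 (edgeR adjusted p = 0.00148).

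Heavy and light chains were both lower on the TMM scale. Per kilobase of merged exons, the 5 light chains summed to 0.526 to 0.683 of the heavy chain in every library. These ratios were 0.532, 0.538 and 0.528 in femur, 0.579, 0.683 and 0.526 in frontal and 0.576 and 0.655 in parietal bone. Frontal library 4 lay below all femur libraries and the other calvarial ones above them. The shares of single light chains varied between libraries. Slc7a5 made up 60.3, 59.4 and 63.8% of their sum in femur, 53.1, 61.5 and 47.8% in frontal and 43 and 41.1% in parietal bone. Slc7a11 made up 15.7, 19.1 and 17.4% in femur, 20.5, 17.8 and 24.2% in frontal and 30.2 and 30.5% in parietal bone, both parietal libraries being above all others, while frontal library 2 lay within the femur range for both genes. These shares describe transcript levels, and merged exons count all annotated isoforms, which lowers the value per kilobase of a gene with a long alternative exon.

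In the Slc1a family 3 of 5 tested members were lower in calvaria (60%, against 31.4% of all genes tested) and 2 did not pass. On the osteocyte scale 2 were higher and 1 lower, with a median of 1.09 against 2.472 for all genes. Among the lower ones Slc1a1 and Slc1a2 passed the low count filter only through femur libraries, so they could hardly have been called higher. The family splits into transporters of glutamate and exchangers of neutral amino acids. Slc1a4 (ENSMUSG00000020142, chromosome 11, 20302180 to 20332713), or ASCT1, which exchanges alanine, serine and cysteine, was at 13.4, 12.7 and 12.6 CPM in femur, 2.15, 2.58 and 1.54 CPM in frontal and 6.42 and 2.43 CPM in parietal bone. The femur libraries lay close together and above all calvarial ones, at a log2 fold change of -2.06 ± 0.28 (SE, edgeR adjusted p = 6.68e-05), which turned to 0.41 on the osteocyte scale. Slc1a1 (ENSMUSG00000024935, chromosome 19, 28835049 to 28913960), or EAAC1, a glutamate, aspartate and cysteine transporter, was near 0 in calvaria, with 5.33, 3.02 and 3.03 CPM in femur, 0.239, 0 and 0 CPM in frontal and 0 and 0.09701 CPM in parietal bone. It had 3 counts in the 5 calvarial libraries and 89 in femur, a level 58.6-fold higher in femur (exact 95% counting interval 19.4 to 290). The log2 fold change was -5.71 ± 0.67 (SE, edgeR adjusted p = 1.93e-05), and it remained lower on the osteocyte scale. It rests on so few calvarial counts that it was -7.1 without frontal library 1 and -6.73 without parietal library 4. Its exons overlap 4430402I18Rik on the other strand over 31.9% of their length, and the strand setting of the counts is not given in the sources used here.

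Slc1a2 (ENSMUSG00000005089, chromosome 2, 102658659 to 102790784), the glutamate transporter known from astrocytes, stood at 2.92, 1.42 and 2.33 CPM in femur, 0.717, 0.382 and 0.562 CPM in frontal and 0.535 and 2.13 CPM in parietal bone. Parietal library 4 lay within the femur range, and the log2 fold change of -1.35 ± 0.49 (SE, edgeR adjusted p = 0.0319) no longer passed without femur library 1 (-1.15, edgeR adjusted p = 0.106), femur library 4 (-1.3, 0.0796), frontal library 2 (-1.23, 0.0595) or parietal library 2 (-1.01, 0.0785), or with the length and GC trend removed (-0.94, 0.118). Without parietal library 4 it was -2 (edgeR adjusted p = 0.00597). Slc1a3, the other glial glutamate transporter, did not pass (0.12, edgeR adjusted p = 0.83).

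Slc1a5 (ENSMUSG00000001918, chromosome 7, 16781340 to 16798274), or ASCT2, a major route of glutamine exchange, was the family's most abundant member per kilobase and differed between the skull bones. It stood at 119, 147 and 164 CPM in femur, 222, 191 and 210.2 CPM in frontal and 103 and 85.5 CPM in parietal bone. All frontal libraries lay above and both parietal libraries below the femur range. It was higher in frontal bone than in femur (0.53 ± 0.14 SE, edgeR adjusted p = 0.0083) and lower in parietal bone (-0.61 ± 0.16 SE, edgeR adjusted p = 0.0081), so that the mean of both skull bones gave -0.04 (edgeR adjusted p = 0.823). The value against femur depended on the scale, at 2.42 on the osteocyte scale and 0.52 (edgeR adjusted p = 0.00386) once the length and GC trend was removed, where parietal bone against femur stood at 0.12 (0.542). Parietal bone against femur was 1.75 on the osteocyte scale, and its call was lost without parietal library 4 (-0.52, edgeR adjusted p = 0.077).

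The Slc38a family, sodium-coupled carriers of glutamine and other neutral amino acids with some lysosomal members, had 3 of 9 tested members higher, 3 lower and 3 not past the test. These shares of 33.3% each are near those of all genes tested, 29.6% higher and 31.4% lower. On the osteocyte scale 8 members were higher and 1 did not pass, with a median of 2.85 against 2.472 for all genes. Slc38a2 (ENSMUSG00000022462, chromosome 15, 96687392 to 96699730), or SNAT2, which is induced when amino acids are short, had the highest mean level per kilobase in femur. It stood at 1537, 1180.3 and 1250.4 CPM in femur, 228, 219.7 and 249 CPM in frontal and 186 and 216 CPM in parietal bone. The lowest femur library was at 1180.3 CPM and the highest calvarial one at 248.7 CPM. The log2 fold change was -2.61 ± 0.12 (SE, edgeR adjusted p = 4.4e-08), a level 6.12-fold lower in calvaria. On the osteocyte scale its log2 fold change was -0.13 and did not pass (edgeR adjusted p = 0.358). Frontal and parietal bone differed by 0.21 ± 0.16 (SE, edgeR adjusted p = 0.408). Per kilobase Slc38a2 made up 81.8% of its family in femur, where every library had 79.2% or more. It made up 30.3, 33.5 and 31.7% in frontal and 39.7 and 41.6% in parietal bone, against 49.3, 40.1 and 51.1% and 32.9 and 32.1% for Slc38a5. Slc38a5 thus held the largest share in frontal bone and Slc38a2 in parietal bone. The 250 bases before its RefSeq start (GRCm38.p6, minus strand, chr15:96699729-96699978) are shown because its value leads the femur libraries. They hold neither TGATGNAA nor AGATAA, so nothing is in capitals.
Slc38a2: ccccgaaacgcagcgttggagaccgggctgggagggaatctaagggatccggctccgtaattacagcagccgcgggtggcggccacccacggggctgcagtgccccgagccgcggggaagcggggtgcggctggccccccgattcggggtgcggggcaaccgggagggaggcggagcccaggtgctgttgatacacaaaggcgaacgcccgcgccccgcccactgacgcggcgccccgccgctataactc

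Slc38a5 (ENSMUSG00000031170, chromosome X, 8271133 to 8280179), or SNAT5, a carrier of glutamine, asparagine, histidine, serine and glycine, changed in the opposite direction. Its level was 7.74, 14.2 and 26.7 CPM in femur, 94.1, 66.6 and 102 CPM in frontal and 39.1 and 42.3 CPM in parietal bone. The femur libraries lay lowest and the frontal ones highest, without overlap, and the log2 fold change in calvaria was 1.86 ± 0.32 (SE, edgeR adjusted p = 0.00042), a level 3.62-fold higher. Within femur its order over libraries 1, 2 and 4 was that of the erythroid share, 1.24, 2.36 and 2.99%, and frontal libraries 1, 2 and 4 held 10.4, 7.44 and 11.3%. The parietal libraries, at 7.16 and 7.76%, had a lower level than frontal library 2 at a similar share. The same femur order held for granulocyte markers (1.83, 3.33 and 4.8%) and proliferation genes (0.0871, 0.126 and 0.141%). It held for monocyte and macrophage, B cell, and megakaryocyte and platelet markers as well, so it is not particular to the erythroid list. The part of erythroid or other cells in the Slc38a5 difference was not tested.

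Slc38a9 (ENSMUSG00000047789, chromosome 13, 112660751 to 112738749), a lysosomal arginine sensor that acts on the growth kinase complex mTORC1, was at 12.04, 15.1 and 10.5 CPM in femur, 24.7, 25.4 and 36.2 CPM in frontal and 20.3 and 24.5 CPM in parietal bone. Every calvarial library lay above every femur library, at 1.01 ± 0.19 (SE, edgeR adjusted p = 0.000784). Slc38a1 (ENSMUSG00000023169, chromosome 15, 96571418 to 96642913), or SNAT1, which lies 44.5 kb from Slc38a2 on chromosome 15, was at 33.9, 38.05 and 28.9 CPM in femur, 58.9, 44.5 and 57.9 CPM in frontal and 35.9 and 35.02 CPM in parietal bone. The parietal libraries lay within the femur range and the frontal ones above it. Its log2 fold change of 0.38 ± 0.14 (SE, edgeR adjusted p = 0.0406) in calvaria was lost when any of 6 of the 8 libraries was left out (0.27 to 0.36, edgeR adjusted p from 0.0784 to 0.157) and by DESeq2 (0.36, 0.0519) or without a low count filter (0.4, 0.0532), while frontal bone alone gave 0.67 ± 0.16 (SE, edgeR adjusted p = 0.00362).

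Slc38a10 (ENSMUSG00000061306, chromosome 11, 120103960 to 120151346), a broadly expressed member, and Slc38a7 (ENSMUSG00000036534, chromosome 8, 95835920 to 95853539), which exports glutamine from lysosomes, were both lower. Slc38a10 stood at 125, 122 and 126 CPM in femur, 64.5, 80.8 and 44.9 CPM in frontal and 56.3 and 54.5 CPM in parietal bone. Slc38a7 stood at 9.63, 11.7 and 7.12 CPM in femur, 5.498, 4.97 and 6.46 CPM in frontal and 2.83 and 5.43 CPM in parietal bone. Neither had calvarial libraries within the femur range. The log2 fold changes were -1.06 ± 0.16 (SE, edgeR adjusted p = 0.000121) and -0.99 ± 0.26 (SE, edgeR adjusted p = 0.00554), and both calls were lost once the length and GC trend was removed (-0.17 with an edgeR adjusted p of 0.237, and -0.58 with 0.0914). Slc38a4 (-0.91, edgeR adjusted p = 0.0897), Slc38a6 (0.56, 0.0814) and Slc38a11 (0.92, 0.17) did not pass. Without frontal library 2 Slc38a4 passed at -1.5 (edgeR adjusted p = 0.00135) and Slc38a6 at 0.69 (0.0253), and Slc38a11 passed without frontal library 4 at 1.12 (0.0489). With the length and GC trend removed Slc38a4 (-1.18, edgeR adjusted p = 0.0294) and Slc38a6 (0.69, 0.0404) also passed, as did Slc38a4 by limma-voom (-1.08, adjusted p = 0.0283) and without a low count filter (-0.88, 0.0369), and Slc38a6 by library size alone (0.65, 0.0438).

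**Figure D2:**
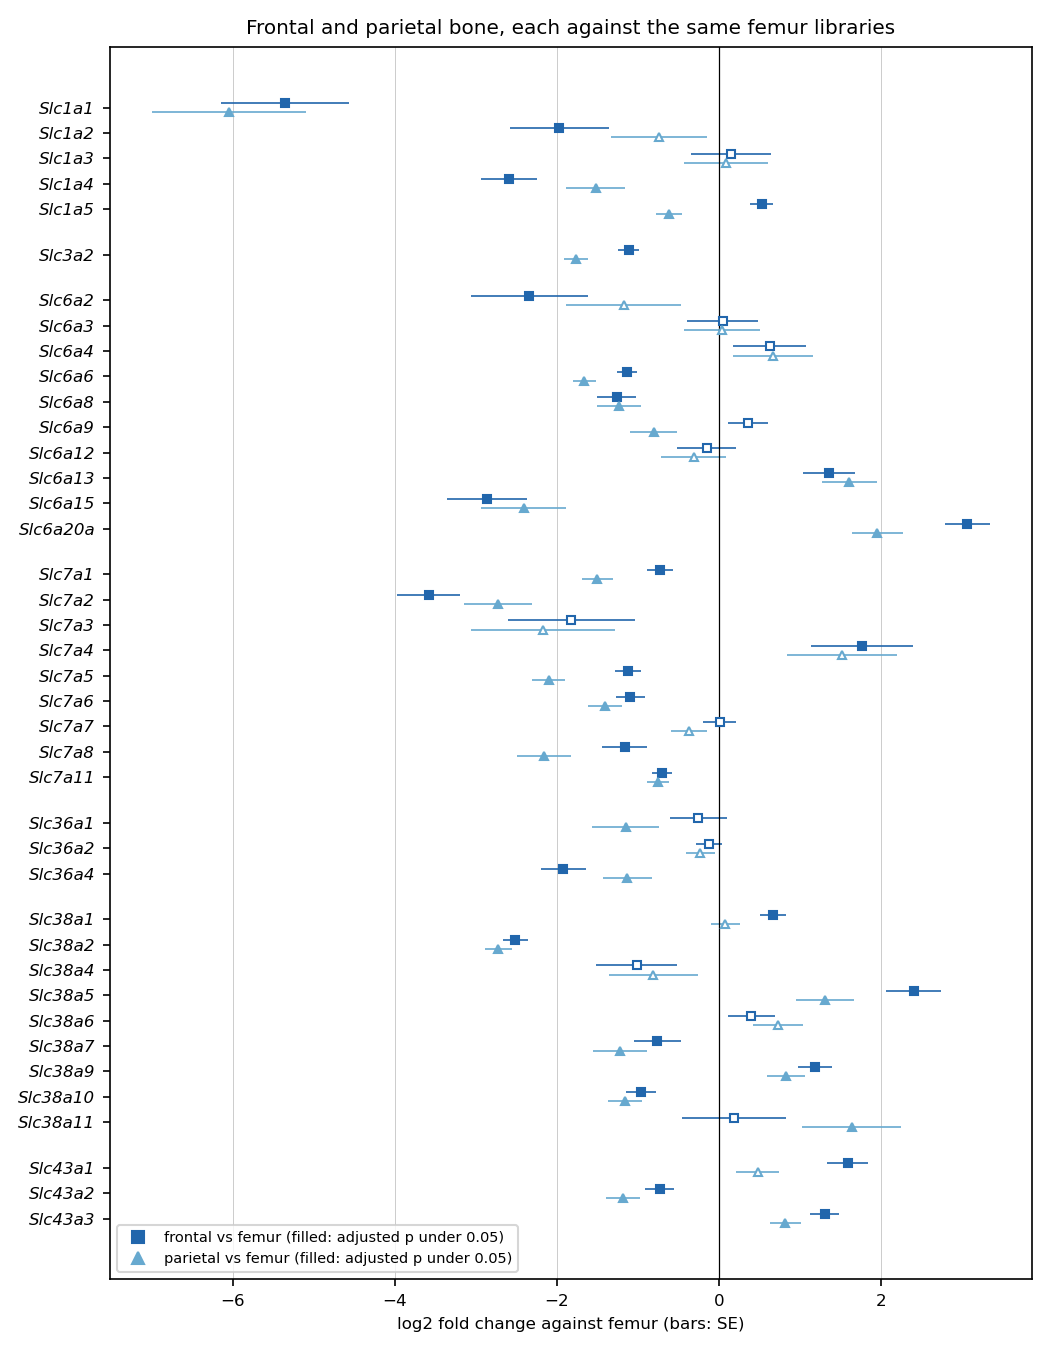
Log2 fold change of each tested transporter in frontal (squares) and parietal (triangles) bone against the same 3 femur libraries, on the TMM scale. Bars are standard errors and filled symbols passed the adjusted p of 0.05. Slc38a2, Slc3a2 and most Slc7a members lie left of 0 in both bones, directions that turned for most of them on the osteocyte scale, and Slc6a20a lies farthest right at 3.07 and 1.96.

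The Slc6a family, which includes carriers of neurotransmitters, taurine, creatine, glycine and proline, had 4 of 10 tested members lower, 2 higher and 4 not past the test. On the osteocyte scale 8 were higher and 2 did not pass, with a median of 2.22 against 2.472 for all genes. Among all genes tested 31.4% were lower and 29.6% higher on the TMM scale. Slc6a6 (ENSMUSG00000030096, chromosome 6, 91684053 to 91759066), the taurine transporter, made up 68.7% of the family per kilobase in femur and 44.5% in calvaria. It was at 222, 231 and 212 CPM in femur, 107, 92.4 and 104 CPM in frontal and 73.3 and 66.8 CPM in parietal bone. The 3 bones did not overlap, with parietal bone lowest, and the log2 fold change in calvaria was -1.39 ± 0.1 (SE, edgeR adjusted p = 7.2e-07), which became 1.08 on the osteocyte scale. Slc6a15 (ENSMUSG00000019894, chromosome 10, 103367783 to 103419377), or B0AT2, a carrier of proline and branched-chain amino acids, was at 6.71, 8.12 and 6.18 CPM in femur, 0.359, 0.574 and 2.11 CPM in frontal and 0.917 and 1.75 CPM in parietal bone. The femur libraries lay above all calvarial ones, at -2.64 ± 0.4 (SE, edgeR adjusted p = 0.000152), against -0.19 on the osteocyte scale.

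Slc6a20a (ENSMUSG00000036814, chromosome 9, 123634770 to 123678885), or SIT1, which carries proline and other imino acids, showed the largest rise of all members. It stood at 1.55, 1.605 and 1.28 CPM in femur, 13.7, 9.37 and 14.6 CPM in frontal and 6.42 and 5.14 CPM in parietal bone. Femur libraries lay lowest and frontal ones highest without overlap, and the log2 fold change in calvaria was 2.52 ± 0.27 (SE, edgeR adjusted p = 1.02e-05), a level 5.72-fold higher. It was higher on every scale tried. Its paralogue Slc6a20b, 2.2 kb away on chromosome 9, lay under the filter, and reads that fit both copies could have been lost or split by the counting. The exons of Slc6a20a overlap Gm17120 and others on the other strand over 14.3% of their length, and the strand setting of the counts is not known. Slc6a13 (ENSMUSG00000030108, chromosome 6, 121300227 to 121337733), or GAT2, a carrier of GABA and taurine, was at 1.204, 2.17 and 1.98 CPM in femur, 5.02, 4.97 and 4.21 CPM in frontal and 7.03 and 4.17 CPM in parietal bone. All calvarial libraries lay above the femur libraries, at 1.49 ± 0.3 (SE, edgeR adjusted p = 0.00105). Its neighbour Slc6a12, 5.34 kb away on chromosome 6, the betaine and GABA carrier, did not pass (-0.23, edgeR adjusted p = 0.561).

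Slc6a8, the creatine transporter, fell by 1.24 on the log2 scale, from 16.2 ± 1.39 CPM (SD, n = 3) in femur to 6.78 ± 1.59 CPM (n = 5) in calvaria. Slc6a9 (ENSMUSG00000028542, chromosome 4, 117834506 to 117875198), or GLYT1, the glycine transporter that supplies heme synthesis in red cell precursors of mice, was at 8.77, 16.4 and 19.7 CPM in femur, 18.5, 20.8 and 19.1 CPM in frontal and 8.33 and 9.02 CPM in parietal bone. Femur library 1 lay with the parietal libraries and the other femur libraries nearer to the frontal ones, and calvaria against femur did not pass (-0.22, edgeR adjusted p = 0.418). Without femur library 1 it passed at -0.5 (edgeR adjusted p = 0.0279), and, once the length and GC trend was removed, it stood at 0.51 (0.0564). Parietal bone by itself was lower than femur at -0.80 ± 0.29 (SE, edgeR adjusted p = 0.0316). That call was lost by library size alone (-0.75, 0.0566), with frontal libraries left out of the fit (-0.80, 0.0585) and without femur library 2 (-0.74, 0.0845) or 4 (-0.58, 0.103). It was also lost by limma on the deposited CPM (-0.64, adjusted p = 0.0751), and turned to 0.13 with the trend removed. Without parietal library 2 the value was -0.77, and without parietal library 4 it was -0.9. Each of these fits left 1 parietal library, so no call is drawn from them. The exons of Slc6a9 overlap those of Ccdc24 and others over 30.2% of their length.

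The amine transporters were low. Slc6a2 (ENSMUSG00000055368, chromosome 8, 92960079 to 93001667), the noradrenaline transporter, had 3.27, 2.08 and 2.33 CPM in femur, 0, 0.956 and 0.421 CPM in frontal and 0.535 and 1.75 CPM in parietal bone. No calvarial library reached the femur range, and the log2 fold change of -1.75 ± 0.58 (SE, edgeR adjusted p = 0.0208) was lost without femur library 1 (-1.59, edgeR adjusted p = 0.0642) or parietal library 2 (-1.44, 0.0681), and it was -2.38 without frontal library 2. Slc6a4, the serotonin transporter that platelets use, was at 3.27, 5.19 and 14.8 CPM in femur, 16.6, 11.9 and 8.14 CPM in frontal and 13.6 and 11.5 CPM in parietal bone and did not pass (0.65, edgeR adjusted p = 0.188). Femur library 4 lay within the calvarial range, and it held the highest share of megakaryocyte and platelet markers in femur, 0.146% against 0.0593 and 0.0708%, with 0.124 to 0.266% in calvaria. Without it Slc6a4 passed at 1.5 (edgeR adjusted p = 0.00192), as it did without a low count filter (0.68, 0.018). Femur library 4 also had the highest femur shares of erythroid (2.99%) and granulocyte (4.8%) markers. The part of platelets or other cells in the Slc6a4 values was not tested. Slc6a3, the dopamine transporter, did not pass (0.05, edgeR adjusted p = 0.926).

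In the Slc36a family 1 of 3 tested members was lower (33.3%, near the 31.4% of all genes) and 2 did not pass. On the osteocyte scale all 3 were higher, with a median of 1.75 against 2.472 for all genes. Slc36a4 (ENSMUSG00000043885, chromosome 9, 15709738 to 15743361), or PAT4, a carrier of proline and tryptophan, was at 80.3, 59.7 and 42.9 CPM in femur, 14.5, 22.6 and 10.7 CPM in frontal and 29.7 and 25.7 CPM in parietal bone. The femur libraries lay above all others, and the log2 fold change was -1.53 ± 0.24 (SE, edgeR adjusted p = 0.000162), which turned to 0.96 on the osteocyte scale. Slc36a2 (ENSMUSG00000020264, chromosome 11, 55158470 to 55185077), or PAT2, a proton-coupled carrier of glycine, alanine and proline, led the family per kilobase with 14.7 ± 3.33 CPM per kb (SD, n = 3) in femur and 13.1 ± 0.906 CPM per kb (n = 5) in calvaria. By library it stood at 60.3, 40.8 and 42.5 CPM in femur, 42.1, 47.2 and 42.3 CPM in frontal and 42.5 and 38.997 CPM in parietal bone. The bones overlapped, and the difference did not pass (-0.17 ± 0.15 SE, edgeR adjusted p = 0.333). Slc36a1, the lysosomal carrier PAT1, did not pass either (-0.70, edgeR adjusted p = 0.0762).

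The Slc43a family had 2 of 3 members higher in calvaria and 1 lower, against 29.6% higher and 31.4% lower among all genes tested. On the osteocyte scale all 3 were higher, with a median of 3.48 against 2.472 for all genes. Slc43a1 (ENSMUSG00000027075, chromosome 2, 84838850 to 84863594), or LAT3, a carrier of leucine and other large neutral amino acids with a known role in red cell development in zebrafish, was at 39.7, 69.6 and 84.01 CPM in femur, 199.96, 147 and 237 CPM in frontal and 86 and 94.7 CPM in parietal bone. The frontal libraries lay well above the rest, and the parietal ones just above the highest femur library. The log2 fold change was 1.03 ± 0.23 (SE, edgeR adjusted p = 0.00188). Frontal bone alone gave 1.59 ± 0.25 (SE, edgeR adjusted p = 0.000221), while parietal bone alone did not pass (0.48 ± 0.27 SE, edgeR adjusted p = 0.147). Slc43a3 (ENSMUSG00000027074, chromosome 2, 84936579 to 84958509), which lies 73 kb away on chromosome 2 and carries purine bases rather than amino acids, was at 47.6, 66.5 and 72.7 CPM in femur, 152, 131 and 182 CPM in frontal and 116 and 105 CPM in parietal bone. Every calvarial library lay above every femur library, at 1.07 ± 0.16 (SE, edgeR adjusted p = 0.000136). In both genes femur library 1 was the lowest. That library had the lowest erythroid share at 1.24%, and also the lowest share of granulocyte markers (1.83%) and proliferation genes (0.0871%). The part of erythroid or other cells was not tested. Slc43a2 (ENSMUSG00000038178, chromosome 11, 75531694 to 75577575), or LAT4, another carrier of large neutral amino acids, was at 29.2, 27.6 and 31.4 CPM in femur, 18.05, 19.1 and 16.01 CPM in frontal and 10.6 and 15.4 CPM in parietal bone. Its calvarial libraries lay below the femur range, at -0.95 ± 0.16 (SE, edgeR adjusted p = 0.000275), but the call was lost once the length and GC trend was removed (-0.15, edgeR adjusted p = 0.412).

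Summed over all 63 members, the level per kilobase was highest in femur and lowest in parietal bone. The sum was 540, 479 and 524 CPM per kb in the femur libraries, 356, 317 and 359 in the frontal and 226 and 218 in the parietal ones. No bones overlapped. The largest differences in level were those of Slc38a2 and Slc3a2, and the place of femur rested on them. With both left out the mean sum was lower in femur than in frontal bone, with overlapping libraries. Parietal bone still had the lowest sum. Slc38a2 stood at 149.7 ± 21.4 CPM per kb (SD, n = 3) in femur and 24.9 ± 2.55 (n = 5) in calvaria, and Slc3a2 at 127 ± 12.5 and 50.5 ± 12.3. The order of levels per kb was Slc38a2, Slc3a2, Slc7a5, Slc1a5 and Slc6a6 in femur, the latter 3 at 41.6 ± 4.74, 34.4 ± 5.404 and 26.2 ± 1.09. Slc38a2 lay above Slc3a2 in each femur library, and both far above Slc7a5. In frontal bone (n = 3) the order was Slc3a2, Slc1a5, Slc38a5, Slc43a3, Slc43a1 and Slc38a2, at 59.1 ± 4.24, 49.8 ± 3.67, 39.003 ± 8.199, 34.8 ± 5.67, 34.04 ± 7.89 and 26.3 ± 1.69 CPM per kb. Slc38a5, Slc43a3 and Slc43a1 differed from their neighbours among these 3 by less than either SD. In parietal bone (n = 2) it was Slc3a2, Slc43a3, Slc38a2, Slc1a5, Slc38a5 and Slc43a1, at 37.6 ± 3.43, 24.7 ± 1.87, 22.8 ± 2.37, 22.6 ± 3.02, 18.2 ± 0.996 and 15.8 ± 1.07 CPM per kb. There Slc43a3, Slc38a2 and Slc1a5 differed from their neighbours among these 3 by less than the larger SD.

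**Figure D3:**
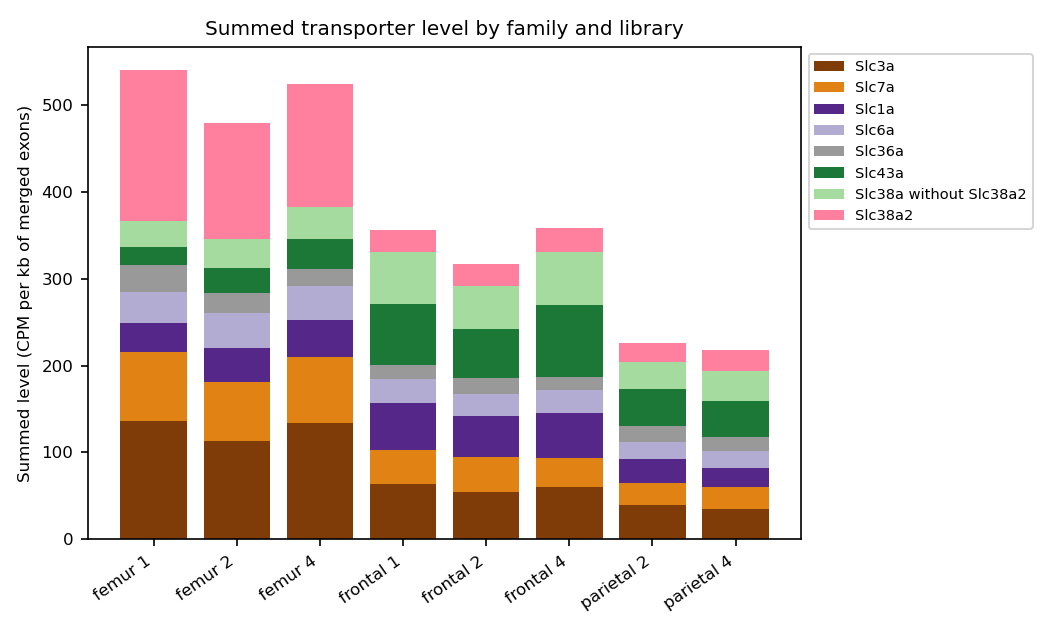
Summed CPM per kb of merged exons in each library, stacked by family, with Slc38a2 set apart from the rest of Slc38a. The 3 femur columns reach 479 to 540, the frontal ones 317 to 359 and the parietal ones 218 and 226. The pink Slc38a2 block and the Slc3a block shrink from femur to calvaria while the Slc43a block grows, as measured on the TMM scale.

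Each skull bone was then set against femur by itself. Frontal bone had 9 members higher, 19 lower and 12 not past the test, against 27.2 and 28.5% of all genes. Parietal bone had 6 higher, 20 lower and 14 not past the test, against 27.1 and 28.6%. The medians were -0.71 and -0.81. Both comparisons share the femur libraries, so their values are given side by side and their likeness is no result. Slc38a2 had -2.51 in frontal and -2.72 in parietal bone, Slc3a2 -1.11 and -1.76, Slc7a5 -1.12 and -2.10, Slc6a20a 3.07 and 1.96, and Slc38a5 2.41 and 1.31. Slc38a11 passed in parietal bone (1.64 ± 0.61 SE, edgeR adjusted p = 0.0376) and Slc36a1 was lower there (-1.15 ± 0.41 SE, edgeR adjusted p = 0.0317), although neither frontal value passed (0.19 and -0.25). Those bones did not differ from each other past the threshold for either gene (edgeR adjusted p = 0.135 and 0.174). Both parietal calls were unstable. That of Slc38a11 was lost by DESeq2 (adjusted p = 0.0549), with the length and GC trend removed (0.95, edgeR adjusted p = 0.217) and without any of 5 libraries, namely femur 1 or 4, frontal 1 or parietal 2 or 4 (1.38 to 1.78, edgeR adjusted p from 0.0506 to 0.196). That of Slc36a1 was lost by DESeq2 (adjusted p = 0.0512), by limma on the deposited CPM (-0.82, adjusted p = 0.0501), without a low count filter (edgeR adjusted p = 0.0717), with the replicate block (0.0572), with the trend removed (-0.51, 0.339) and without femur library 2, parietal library 2 or parietal library 4 (-0.79 to -1.22, 0.0913 to 0.156), and it turned to 1.19 on the osteocyte scale. Without parietal library 4 only 3 members were higher in parietal bone than in femur.

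Frontal bone was compared with parietal bone directly, which also tests whether both differ from femur alike. In it 8 of the 40 tested members were higher in frontal bone, none was lower and 32 did not pass. Among all genes 3.91% were called higher and 3.29% lower. At an unadjusted p under 0.05 edgeR had 14 members higher and 3 lower, and DESeq2 and limma-voom called 0 and 0 members lower after adjustment. The 8 were Slc6a9 (1.17 ± 0.29 SE, edgeR adjusted p = 0.0387), Slc1a5 (1.14 ± 0.17 SE, edgeR adjusted p = 0.0272), Slc6a20a (1.11 ± 0.27 SE, edgeR adjusted p = 0.0378) and Slc43a1 (1.11 ± 0.28 SE, edgeR adjusted p = 0.0403), and further Slc7a5 (0.98, 0.0281), Slc7a1 (0.77, 0.0373), Slc3a2 (0.65, 0.0324) and Slc6a6 (0.53, 0.0406). In each the 3 frontal libraries lay above both parietal ones, as in every one of the 3.91% of genes called higher. None of the 8 calls was kept with the library number as a replicate block (edgeR adjusted p from 0.0979 to 0.123) or with the length and GC trend removed (0.0566 to 0.369), although all values remained above 0. By the same test no member was called without frontal library 1, femur library 2, parietal library 2 or parietal library 4, and 3 were called without frontal library 4. Without those libraries the values of Slc1a5 ran from 1.05 to 1.32 and remained above 0. Among all genes, too, 0 were called in either direction with the replicate block and without frontal library 1 or femur library 2. With the length and GC trend removed 14 of all genes were called higher and 21 lower, and without frontal library 4 these were 395 and 123. The erythroid share was 7.44 to 11.3% in frontal and 7.16 to 7.76% in parietal bone, and proliferation genes took 0.363 to 0.387% and 0.321 to 0.33%, with 4 of 16 higher in frontal bone. Their part in these differences was not tested.

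**Figure D4:**
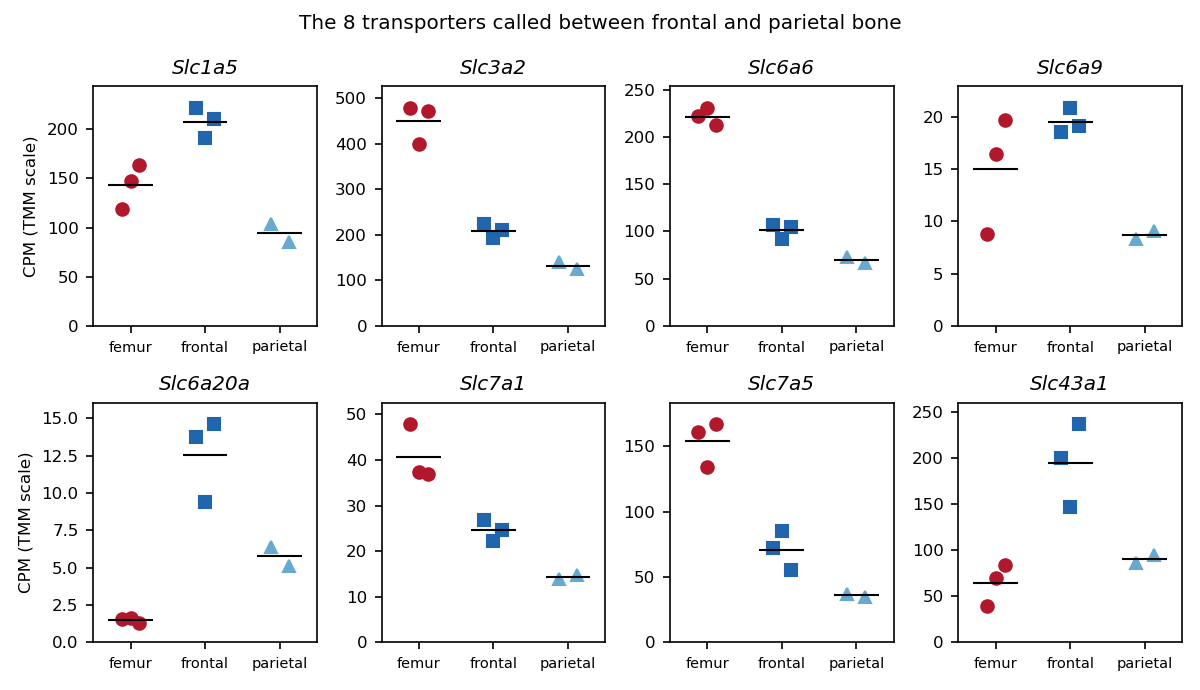
CPM on the TMM scale of the 8 transporters called between frontal and parietal bone, with a point per library and a line at the mean. Frontal libraries lie above parietal ones in every panel, while femur lies highest for Slc3a2, Slc6a6, Slc7a1 and Slc7a5 and lowest for Slc6a20a.

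Genes around amino acid transport were looked at by 4 lists. The first, the integrated stress response, slows translation and raises Atf4 when amino acids or other supplies fail. Of its 22 tested genes 17 were lower and 3 higher in calvaria, with a median log2 fold change of -1.06, which turned to 1.41 on the osteocyte scale. The lower ones included Sesn2, a leucine sensor (-2.37, edgeR adjusted p = 5.16e-07), Stc2, a secreted glycoprotein (-2.49, 5.94e-06), Ppp1r15b, which brings translation back (-1.61, 2.61e-06), and the transcription factor Atf3 (-1.52, 1.95e-06). Named after their values were seen, Atf4 itself was at -0.97 (edgeR adjusted p = 7.13e-06), while the asparagine synthetase Asns (0.17, 0.333) and the transcription factor Ddit3 (0.04, 0.788) did not pass.

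Of 32 genes of amino acid sensing by mTORC1, 15 were lower and 7 higher, with a median of -0.41, which turned to 2.06 on the osteocyte scale and to 0.11 once the length and GC trend was removed. Sesn2 and the small GTPase Rragd (-2.34, edgeR adjusted p = 1.93e-06) were lower, and the lysosomal scaffold subunits Lamtor2 (1.40, 9.48e-06) and Lamtor5 (0.97, 2.85e-05) were higher. Of 24 enzymes of amino acid synthesis and breakdown 7 were lower and 5 higher, with a median of -0.03, or 2.43 on the osteocyte scale. Arginase Arg1 (-2.99, edgeR adjusted p = 7.31e-05), glutamate dehydrogenase Glud1 (-0.67, 0.000301) and the transaminase Gpt2 (-0.95, 0.000838) were among those lower. Of 14 amino acid transporters outside the 7 families 4 were higher and 4 lower, with a median of -0.23, or 2.22 on the osteocyte scale and 0.20 once the length and GC trend was removed. The higher ones included the mitochondrial aspartate-glutamate carrier Slc25a12 (1.27, edgeR adjusted p = 1.07e-05), the mitochondrial glycine carrier of heme synthesis Slc25a38 (1.13, 0.000367) and the aromatic amino acid carrier Slc16a10 (1.03, 0.000272), and Slc66a1, a lysosomal exporter of cationic amino acids, was lower (-0.97, 0.00097). As for the transporters, these are directions on the TMM scale, where 29.6% of all genes were higher and 31.4% lower. On the osteocyte scale the median of all genes was 2.472.

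**Figure D5:**
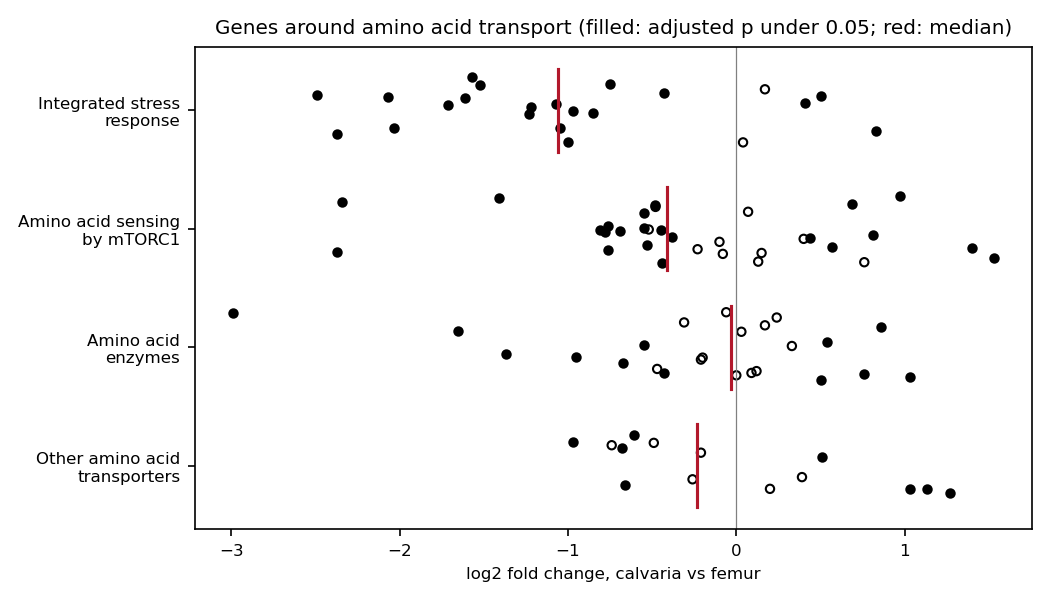
Log2 fold change in calvaria against femur, on the TMM scale, of the tested genes of 4 lists around amino acid transport. Each point is a gene, filled where it passed the adjusted p of 0.05, and a red line marks the list's median. The medians are -1.06, -0.41, -0.03 and -0.23 from top to bottom and turned to 1.41, 2.06, 2.43 and 2.22 on the osteocyte scale.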

How the data were processed

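Raw counts by gene and a filtered version with the same counts were deposited by the authors. A further deposited table holds a normalized signal, a CPM whose name mentions TMM. The submitters' processing notes name STAR 2.5.2a, DESeq2, edgeR, limma, GRCm38.p3 and mm10. How reads were counted, on which strand and with which annotation is not given in the sources used here. Libraries followed the Nextera XT method with paired-end reads, per the labels' protocols, and were grouped by bone from the labels.

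The 92 spike-in rows entered neither library sizes nor tests. Symbols were found for 42462 of 43346 genes, with positions from GENCODE M21 on GRCm38 and promoters from RefSeq (GRCm38.p6). The members, lists and tests were chosen with earlier results of these data known.

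edgeR 4.0.16, run in R 4.3.3, tested the deposited counts (filterByExpr with a cutoff of 1.09 CPM, TMM, robust quasi-likelihood fit of the 3 bones on all 8 libraries, 5 residual degrees of freedom, biological coefficient of variation 18.6%). Benjamini-Hochberg adjustment ran over 15511 genes, with calls at an adjusted p under 0.05. SEs come from each fold change and F statistic. Counting intervals cover counting error only. Libraries of one bone always differed beyond sampling noise (chi-square of 7.83 or more for each degree of freedom).

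Named in full were, per family, up to 3 called members per direction with a mean of at least 1 CPM, the member highest per kilobase, and members called between frontal and parietal bone. The 4 genes with the smallest p stand for a pathway list. Some genes are counted but not reported by name here. Other members are named with their log2 fold change. Alternatives were other scalings, filters and tools (DESeq2 1.42.0, limma-voom and limma 3.58.1 on log2 of the deposited scaled CPM plus 0.5), a replicate block, removal of a length and GC trend, and leaving out each library. The edgeR step was checked on simulated counts.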

Additional observations from a re-analysis of the deposited data

Results flagged for a closer look

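In 8 transporters the difference from femur was not the same in frontal and parietal bone by edgeR's test of frontal against parietal bone. The log2 differences between the bones' values, frontal over parietal, were 1.17 for Slc6a9, 1.14 for Slc1a5, 1.11 for Slc6a20a, 1.11 for Slc43a1, 0.98 for Slc7a5, 0.77 for Slc7a1, 0.65 for Slc3a2 and 0.53 for Slc6a6. None of the 8 passed with the length and GC trend removed, with the replicate block, or without any of frontal library 1, femur library 2, parietal library 2 and parietal library 4. On the TMM scale the signs of Slc1a5 against femur were opposite, with frontal bone higher at 0.53 and parietal bone lower at -0.61, but parietal bone was at 0.12 with that trend removed and at 1.75 on the osteocyte scale, and its call was lost without parietal library 4 (-0.52, edgeR adjusted p = 0.077). On the TMM scale both bones were lower than femur for Slc3a2, Slc6a6, Slc7a1 and Slc7a5. Only 2 parietal libraries stand behind each of these values. Among all genes, too, 0 were called between frontal and parietal bone with the replicate block and without frontal library 1 or femur library 2.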

How the results depend on the processing

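The scale of the libraries set most directions against femur. With the libraries scaled to the osteocyte markers, 32 members were higher and 2 lower in calvaria against femur, 32 and 2 in frontal and 32 and 1 in parietal bone. Of all 15511 genes tested, 14487, 14386 and 13993 were called in either direction in these comparisons. The members' medians were 1.63, 1.87 and 1.53, each below that of all genes at 2.472, 2.585 and 2.36. The log2 fold changes in calvaria that turned on that scale were Slc1a2 1.09, Slc1a4 0.41, Slc1a5 2.42, Slc3a2 1.04, Slc6a2 0.67, Slc6a6 1.08, Slc6a8 1.21, Slc6a9 2.22, Slc6a12 2.22, Slc7a1 1.37, Slc7a3 0.39, Slc7a5 0.86, Slc7a6 1.24, Slc7a7 2.29, Slc7a8 0.83, Slc7a11 1.74, Slc36a1 1.75, Slc36a2 2.31, Slc36a4 0.96, Slc38a4 1.52, Slc38a7 1.48, Slc38a10 1.40, Slc43a2 1.51 and Slc7a6os 1.72. In frontal bone against femur they were Slc1a2 0.58, Slc6a2 0.17 and Slc36a1 2.31, and in parietal bone Slc1a2 1.60, Slc1a5 1.75, Slc6a2 1.17, Slc6a9 1.53 and Slc36a1 1.19, among the members whose call against femur was not the same in both bones. That scale takes the typical osteocyte marker as equal in all libraries, so its shift follows from the fall of those markers. Scaling to library size alone turned Slc1a5 in calvaria to 0.05, and the deposited scaled CPM gave it 0.04. Once the length and GC trend was taken out, Slc1a5 stood at 0.52 and Slc6a9 at 0.51 in calvaria, Slc36a1 0.06 and Slc38a11 -0.04 in frontal bone and Slc1a5 0.12 and Slc6a9 0.13 in parietal bone, 13 members were lower in parietal bone than in femur, and 0 were higher in frontal than in parietal bone. At an unadjusted p under 0.05 edgeR then had 12 members in that comparison. Of all genes 14 were called higher and 21 lower there after adjustment. By limma-voom Slc38a11 in frontal bone against femur was at -0.09. Without a low count filter 2 members were lower in frontal than in parietal bone. The cause of these changes was not tested. Libraries that share a number did not deviate together (correlations across genes of -0.10 to 0.14). With 2 or 3 libraries per bone this cannot show whether the number marks a pairing, and the main fit left the number out. With the number as a replicate block, 6 members were higher and 20 lower in calvaria, the calls of Slc38a1 (edgeR adjusted p = 0.0645) and Slc7a4 (0.0504) being lost, and 0 were higher in frontal than in parietal bone, where 15 passed an unadjusted p under 0.05. Of all genes, too, 0 were called between frontal and parietal bone with that block. Leaving out each library in turn gave from 6 to 8 higher and 17 to 20 lower in calvaria against femur, from 8 to 10 higher and 18 to 19 lower in frontal bone against femur, from 3 to 7 higher and 17 to 20 lower in parietal bone against femur and from 0 to 12 higher and 0 to 1 lower in frontal against parietal bone. The lowest value in parietal bone against femur came without parietal library 4. Uncalled values whose sign turned without a library ran over these ranges, Slc1a3 in calvaria from -0.18 to 0.56, Slc1a5 in calvaria from -0.18 to 0.06, Slc6a3 in calvaria from -0.25 to 0.34, Slc6a9 in calvaria from -0.50 to 0.01, Slc6a12 in calvaria from -0.44 to 0.16, Slc36a1 in frontal bone from -0.40 to 0.12, Slc38a1 in parietal bone from -0.03 to 0.17 and Slc38a11 in frontal bone from -0.38 to 0.63. The 2 parietal libraries, totals of 6259229 to 13461622 counts and members near 1 CPM limit what could be seen, and 23 members were too low to test.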
